A study of Saccharomyces cerevisiae with 12 samples.

Results

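The DNA repair and damage response genes described here are 35 genes of the yeast Saccharomyces cerevisiae, of 5449 genes measured. They were taken from a list of excision, recombination, alkylation repair, checkpoint and damage-induced reductase genes, each through its probe set of highest mean intensity. All 35 were measured by exactly 1 probe set, and none of these probe sets was marked as shared with another gene. RNA came from exponentially growing cultures of BY4741, a laboratory strain that is haploid and of mating type a, in minimal medium at pH 6.5. Cultures received 110 mg/L of alachlor, a chloroacetanilide herbicide, and were set against untreated cultures of the same experiment, a dose the submitters call the LOEC, the lowest observed effect concentration. In a separate experiment cultures received 200 mg/L alachlor and were set against their own untreated cultures, a dose the submitters call the IC20. All cultures were harvested after 2 h, with 3 biological replicates in each of the 4 groups, 1 array each. BY4741 lacks functional HIS3, LEU2, MET17 and URA3, so every group, the untreated ones too, carries these alleles, and only 1 strain was tested.

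DNA damage is handled in yeast by several branches. Nucleotide excision repair cuts out bulky lesions with a stretch of the damaged strand, base excision repair removes single altered bases, and direct reversal takes an alkyl group off a base without cutting DNA. Recombination restores broken ends from an intact copy, and postreplication repair and translesion synthesis let replication pass a lesion. Checkpoint kinases sense unrepaired DNA and, through Dun1, raise ribonucleotide reductase, the enzyme that makes the building blocks of DNA. In yeast, strong alkylating agents are known to raise transcripts of MAG1, RAD54 and the reductase genes, above all RNR3.

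Intensities are on a linear scale, as the authors deposited them, and changes are on the log2 scale from a limma fit across all 5449 genes. A gene passed the test at a Benjamini-Hochberg adjusted p under 0.05 over all genes. Array medians lay between 1561 and 1613, and arrays of one group correlated at 0.993 to 0.998. Every median at 110 mg/L (1601 to 1609) lay above those of the LOEC controls (1567 to 1579). The deleted loci LEU2, URA3 and MET17 read at most 228.8 on any array, which served as a floor, whereas HIS3, a partial deletion in this strain, read well above it. STE2 and MFA1, markers of mating type a, were bright, while MF(ALPHA)1 and STE3, markers of mating type alpha, stayed below the floor on every array. The alpha markers MF(ALPHA)2 and SAG1 read 163 to 377 and 1112 to 1831. In the IC20 experiment arrays of one group differed in how their signal went with coding length, and array 1 at 200 mg/L and array 2 of the IC20 controls had the most negative trend of their groups. PHR1 lay below the floor on all 12 arrays and RAD55 on 1, and counts, medians and branch values over the members include both. Low signal was not limited to these genes, since only 22 members remained when the dimmest 20% of genes were left out. The members left out, RAD4, RAD16 and RAD50 among them, stay in the main counts. RAD4 read 247 to 316 over all arrays, not far above the floor. In such RNA samples, fewer cells with a transcript and less transcript per cell cannot be told apart.

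At 110 mg/L alachlor none of the 35 repair genes passed the test in limma, whereas 232 of all 5449 genes (4.26%) did, 3.05% upward and 1.21% downward. Over all genes the 166 rises became 102 and 84 without LOEC control replicates 1 and 2, and 88 and 105 without 110 mg/L replicates 1 and 3. The 66 falls became 31 and 29 without those controls, and 29, 42 and 30 without 110 mg/L replicates 1, 2 and 3. After median centring of the arrays, 123 of all genes rose and 101 fell, and after quantile normalization 145 rose and 94 fell. The excess of rises was thus smaller under both settings but remained. At an unadjusted p under 0.05 the count was 3 of 35, against 16.3% of all genes. The log2 changes ran from -0.24 for MAG1 to 0.18 for RAD10 and had a median of -0.0164, with 17 positive and 18 negative, against a median of 0.00525 over all genes. Without PHR1 the members' median was -0.0069, and its sign changed under some alternatives. Every 95% interval lay within 1 log2 unit of 0, and 34 of 35 within 0.5. All 3 treated arrays lay above all 3 controls for 1 member and below them for 8, against 15.4% and 12.2% of all genes (27.6% in either direction).

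At 200 mg/L alachlor 3 of 35 repair genes rose and 1 fell, 11.4% of the members, against 17.8% of all genes (971 of 5449), of which 10% rose and 7.8% fell. MGT1, which repairs alkylated guanine, RNR3, the damage-induced large subunit of ribonucleotide reductase, and RAD50, a subunit of the complex that binds broken ends, rose 1.13- to 1.27-fold. RAD16, an ATPase for nucleotide excision repair of untranscribed DNA, fell to 0.74 of the IC20 controls. These calls were small in size, since none of the 35 changes reached 0.5 on the log2 scale, a size reached by 4% of all genes. Without the pair of arrays of most negative length trend the same 4 genes passed, at -0.417 for RAD16, 0.28 for MGT1, 0.246 for RAD50 and 0.387 for RNR3 (adjusted p 0.00289 to 0.0191). That setting keeps array 3 at 200 mg/L, whose trend with length was positive. RAD50 passed under 7 of 21 alternatives, and was lost once each array's trend with coding length was removed. The median over the members was 0.0531, against 0.000213 over all genes, and the treated arrays lay above all controls for 8 members, PHR1 among them, and below them for 2, against 16.3% and 14.5% of all genes (30.8% in either direction).

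The members' typical change was close in size to that of other genes. The median size of the log2 change was 0.0773 in the members and 0.0633 in all genes at 110 mg/L, and 0.125 and 0.1 at 200 mg/L. By sign, 11 members were positive at both doses, 8 negative at both, 10 negative at 110 mg/L and positive at 200 mg/L, and 6 the other way. Across the 35 members the changes at the 2 doses had a Spearman correlation of 0.0658, while over all 5449 genes it was 0.537. These are descriptions across genes, which share arrays and are not independent replicates, and the doses have separate controls. For scale, 10 of 10 listed targets of Pdr1 and Pdr3, regulators of drug export pumps, rose at 200 mg/L with a median of 1.21, against 10% of all genes. At 110 mg/L 8 of 10 rose with a median of 0.895, against 3.05% of all genes. The other 2 were negative there, the lowest at -0.237, and did not pass. These targets, too, were listed with earlier results of these data known. The 3 with the smallest p, RSB1, GRE2 and YOR1, rose by 4.13, 2.72 and 2.08 at 200 mg/L and by 3.21, 1.85 and 1.36 at 110 mg/L on the log2 scale (adjusted p at most 5.26e-08).

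**Figure D1:**
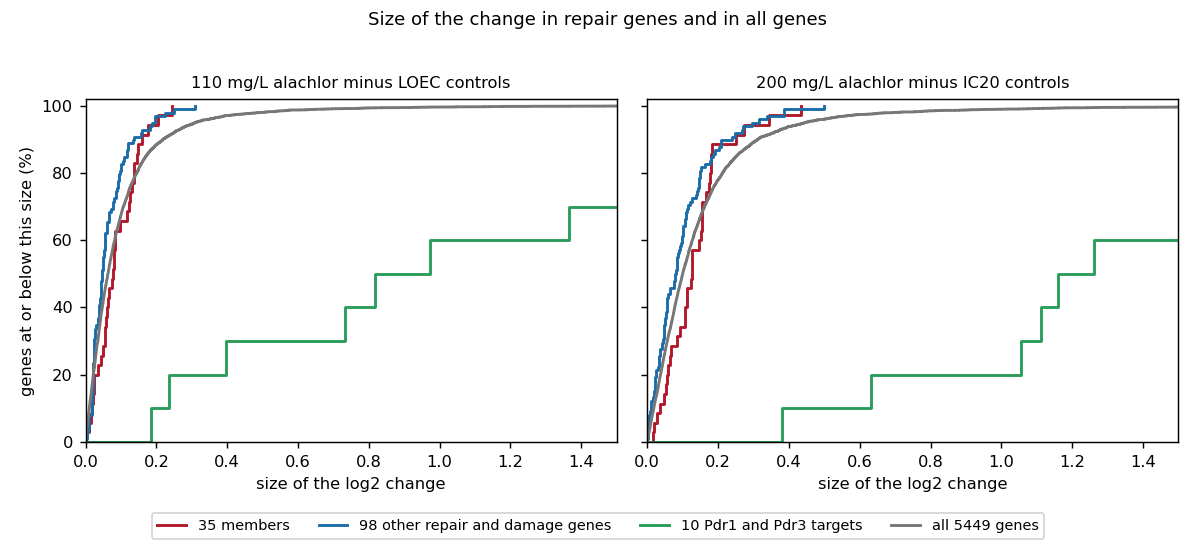
Share of genes (%) whose log2 change is at or below the size on the horizontal axis, at 110 mg/L alachlor against LOEC controls and at 200 mg/L alachlor against IC20 controls. The curves of the 35 repair genes and of 98 further repair and damage genes end below 0.5 at 110 mg/L and at 0.5 or below at 200 mg/L, whereas 8 Pdr1 and Pdr3 targets at 110 mg/L and 9 such targets at 200 mg/L changed by more than any of these repair genes.

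**Figure D2:**
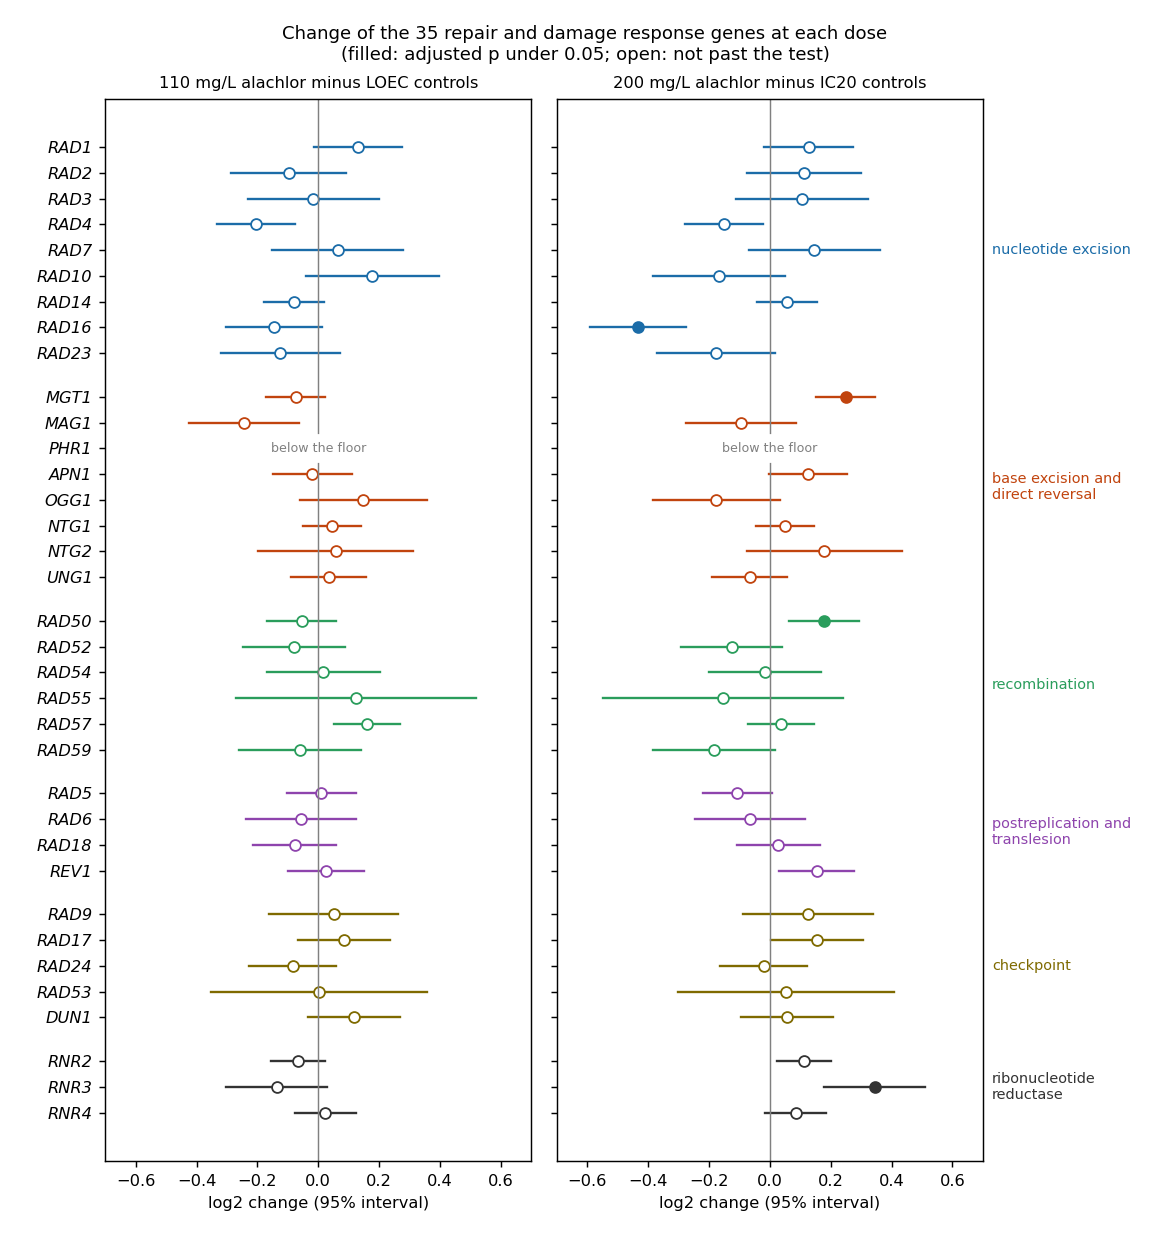
Log2 change of the repair genes, without PHR1, which lay below the floor, grouped by branch, with 95% intervals from the limma fit, at 110 mg/L alachlor against LOEC controls and at 200 mg/L alachlor against IC20 controls. Changes past the test are MGT1, RNR3, RAD50 and RAD16, all at 200 mg/L.

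Nucleotide excision repair was represented by 9 genes, of which 1 fell at 200 mg/L and none passed at 110 mg/L. Their median log2 change was 0.0574 at 200 mg/L and -0.0799 at 110 mg/L. For comparison, 7.8% of all genes fell at 200 mg/L and 4.26% passed at 110 mg/L. RAD16 read 383, 429 and 456 on the 200 mg/L arrays, against 609, 530 and 574 on the IC20 control arrays. The 3 treated values lay below all 3 controls, and the means were 423 ± 37.1 and 571 ± 39.2 (SD, n = 3 each). This is a log2 change of -0.43 (SE 0.0715, 95% interval -0.59 to -0.28, adjusted p = 0.00182). In the 110 mg/L cultures RAD16 read 528, 505 and 485, against 572, 572 and 534 in LOEC controls, also without overlap. That change of -0.15 did not pass (adjusted p = 0.356), and the changes at the 2 doses did not differ past the test (difference -0.29, adjusted p = 0.286). The fall at 200 mg/L passed under 21 of 21 alternative settings (adjusted p 3.98e-05 to 0.0282).

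RAD7, whose product forms the damage-recognition complex with Rad16, did not share this pattern. It read 786, 885 and 989 at 200 mg/L, against 889, 697 and 818 in IC20 controls. The 2 groups overlapped, and the change was 0.15 (adjusted p = 0.341). Its change at 110 mg/L was 0.06 (adjusted p = 0.851).

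The lesion recognition pair RAD4 and RAD23 had negative values at both doses, none past the test. RAD4 read 267, 265 and 247 at 110 mg/L, against 306, 309 and 283 in LOEC controls, with no overlap. Its change there was -0.20 (adjusted p = 0.0856), and it passed after quantile normalization (adjusted p = 0.0122) and median centring (0.0468). At 200 mg/L RAD4 changed by -0.15 (adjusted p = 0.102). RAD23, which also links to the proteasome, changed by -0.12 at 110 mg/L and -0.18 at 200 mg/L (adjusted p = 0.575 and 0.196).

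The genes of the 2 cutting enzymes showed no common direction. RAD1 and RAD10 encode the nuclease that cuts on one side of the lesion. RAD1 changed by 0.13 at both doses (adjusted p = 0.367 at 110 mg/L and 0.215 at 200 mg/L), whereas RAD10 had 0.18 at 110 mg/L and -0.17 at 200 mg/L (adjusted p = 0.425 and 0.281). RAD2, which encodes the nuclease for the other side, read 511, 516 and 489 at 110 mg/L, against 554, 537 and 530 in LOEC controls, a change of -0.10 (adjusted p = 0.677). At 200 mg/L it read 490, 610 and 611, against 572, 484 and 523 in IC20 controls, so that 1 treated array lay among the controls and 2 above them (0.11, adjusted p = 0.403, and 0.0444 when the low array, replicate 1 at 200 mg/L, was left out). RAD3, a helicase subunit of TFIIH, had the smallest change of the branch at 110 mg/L (-0.02, adjusted p = 0.976), and RAD14, a damage binding factor, the smallest at 200 mg/L (0.06, adjusted p = 0.413).

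**Figure D3:**
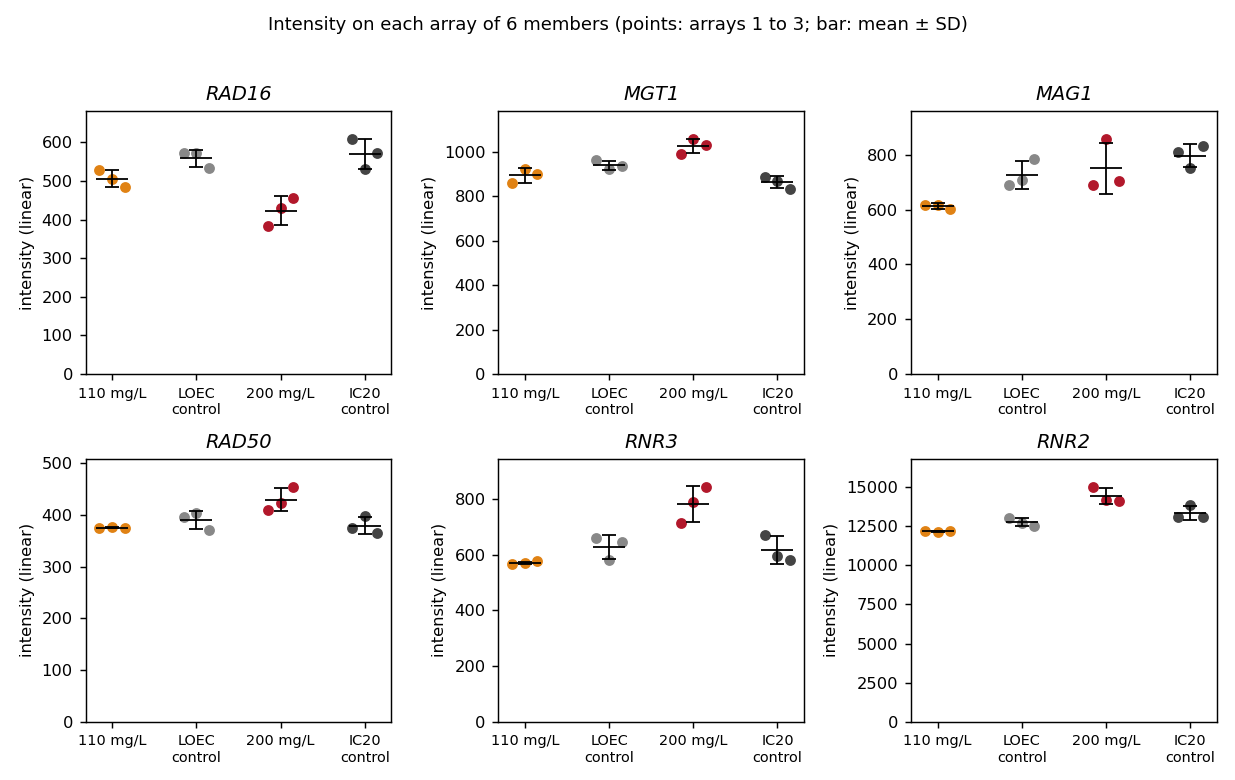
Deposited intensity (linear scale, each axis from 0) of selected repair genes on each array, with the mean and SD of each group (n = 3), alachlor arrays left of their controls in each experiment. RAD16 is lower on all 3 arrays at 200 mg/L than on the IC20 controls, and MGT1, RNR3 and RAD50 are higher on all 3.

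Among the 8 genes of base excision repair and direct reversal, 1 rose at 200 mg/L and none passed at 110 mg/L. For comparison, 10% of all genes rose at 200 mg/L and 4.26% passed at 110 mg/L. MGT1, the methyltransferase that takes alkyl groups from guanine, read 991, 1057 and 1031 at 200 mg/L, against 886, 870 and 835 in IC20 controls. The groups did not overlap, with means of 1027 ± 33.5 and 864 ± 25.9 (SD, n = 3 each). MGT1 rose by 0.25 on the log2 scale (fold 1.19, SE 0.0438, 95% interval 0.15 to 0.35, adjusted p = 0.00269). The 110 mg/L arrays read 859, 923 and 899, against 962, 923 and 937 in LOEC controls (-0.07, adjusted p = 0.467). MGT1 was the one member whose responses differed between the doses past the test, by 0.32 (200 mg/L response minus 110 mg/L response, SE 0.0619, 95% interval 0.19 to 0.46, adjusted p = 0.0318). Of all genes, 1.25% differed so, 0.991% upward and 0.257% downward, and leaving out single arrays gave 34 to 54 and 5 to 14 such genes.

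That difference was less stable than the rise at 200 mg/L. The MGT1 rise passed under 22 of 22 alternative settings (adjusted p 0.00192 to 0.0395), whereas the difference passed under 8 of 21. It was lost without any 1 of 10 single arrays (adjusted p 0.06 to 0.102) and without the pair of most negative length trend (0.0543). The single arrays were LOEC control replicates 1, 2 and 3, 110 mg/L replicates 1 and 3, IC20 control replicates 1, 2 and 3, and 200 mg/L replicates 2 and 3. The untreated groups also stood apart, with all IC20 controls below all LOEC controls (-0.12, adjusted p = 0.228), which held for 10.3% of all genes.

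MAG1, the glycosylase that removes alkylated bases and a well known damage-induced gene, gave no rise. It read 619, 619 and 601 at 110 mg/L, against 690, 707 and 784 in LOEC controls, and 688, 858 and 706 at 200 mg/L, against 809, 752 and 833 in IC20 controls. The 110 mg/L arrays lay below all their controls and the 200 mg/L arrays overlapped theirs. The changes were -0.24 (95% interval -0.43 to -0.06, adjusted p = 0.143) and -0.09 (adjusted p = 0.469). Leaving out 200 mg/L replicate 2 took the first past the test (adjusted p = 0.0467). RPN4, a transcription factor of proteasome genes also tied to MAG1 in yeast, rose 1.54-fold at 110 mg/L and 2.09-fold at 200 mg/L (adjusted p = 0.00467 and 3.56e-05). Of the 32 genes in a list of RPN4 and proteasome subunits, 1 rose and 1 fell at 110 mg/L (median -0.0709), and 1 rose and 2 fell at 200 mg/L (median -0.0511), the rise being RPN4 itself. These are 6.25% and 9.38% of the list, against 4.26% and 17.8% of all genes. At 110 mg/L 31 of the 32 were negative, against 2588 of 5449 genes. There 15 lay below all their controls and 1 above, against 12.2% and 15.4% of all genes. At 200 mg/L 21 were negative, against 2722 of 5449 genes, with 8 below all their controls and 3 above, against 14.5% and 16.3%. PRE10 fell by 0.16 at 110 mg/L (adjusted p = 0.0444), a call that passed under 9 of 22 alternatives. It was lost without any 1 of 10 arrays (adjusted p 0.054 to 0.169), which were all but 200 mg/L replicates 2 and 3. RPN10 fell by 0.21 at 200 mg/L (adjusted p = 0.0304), a call that passed under 16 of 22 alternatives. It was lost without IC20 control replicate 2 or 3 or 200 mg/L replicate 3 (adjusted p 0.0764 to 0.0906). PRE4, named after its values were seen, fell by 0.18 at 200 mg/L (adjusted p = 0.0450), a call that passed under 11 of 22 alternatives. It was lost without any 1 of 8 arrays (adjusted p 0.0587 to 0.135). Those arrays were LOEC control replicates 1, 2 and 3, 110 mg/L replicate 1, IC20 control replicates 2 and 3, and 200 mg/L replicates 2 and 3. DDI1, the neighbour of MAG1 in the RefSeq table, named after its values were seen, changed by 0.03 and -0.05 (adjusted p = 0.859 and 0.457).

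The remaining base excision genes did not pass at either dose. OGG1, the glycosylase for oxidized guanine, read 788, 783 and 706 at 200 mg/L, all below the 796, 962 and 819 of the IC20 controls (-0.18, adjusted p = 0.238). Its change at 110 mg/L was 0.15 (adjusted p = 0.512). APN1, the main endonuclease for sites without a base, read 1782, 1811 and 1790 at 200 mg/L, all above the 1638, 1750 and 1553 of the IC20 controls (0.13, adjusted p = 0.173). The glycosylase genes NTG1, NTG2 and UNG1 changed by -0.07 to 0.18 at the 2 doses. PHR1, the photolyase that reverses ultraviolet damage, read 95 to 156 on all arrays, below the floor, and no fold is given.

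In recombination, 1 of 6 genes rose at 200 mg/L and none passed at 110 mg/L, with medians of -0.0705 and -0.0191. Of all genes, 10% rose at 200 mg/L and 4.26% passed at 110 mg/L. RAD50 read 410, 424 and 454 at 200 mg/L, against 375, 398 and 365 in IC20 controls. The groups did not overlap, and the rise was 0.18 on the log2 scale (fold 1.13, SE 0.0516, 95% interval 0.06 to 0.29, adjusted p = 0.0364). The lower dose gave 375, 377 and 374, against 397, 403 and 371 in LOEC controls (-0.06, adjusted p = 0.714). The call at 200 mg/L passed under 7 of 21 alternatives, and was lost without any 1 of 8 arrays (adjusted p 0.0505 to 0.115), namely LOEC control replicates 1 and 2, 110 mg/L replicates 1 and 2, IC20 control replicates 1 and 3, and 200 mg/L replicates 2 and 3. It was also lost once each array's trend with coding length was removed (log2 change 0.115, adjusted p = 0.172).

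RAD52, which loads the strand exchange protein, and RAD59, its relative, both had negative values at 200 mg/L. RAD52 read 939, 759 and 834 there, against 891, 998 and 868 in IC20 controls (-0.13, adjusted p = 0.290). RAD59 read 504, 499 and 559, against 678, 559 and 543 (-0.18, adjusted p = 0.196). Both overlapped their controls. RAD55 and RAD57 encode a pair of proteins that assist strand exchange. RAD57 read 898, 955 and 923 at 110 mg/L, against 820, 805 and 862 in LOEC controls, the single member above all its controls at that dose (0.16, adjusted p = 0.111). RAD55 had the widest spread, with 286, 279 and 171 in LOEC controls, the last below the floor. RAD54, a translocase that acts with the exchange filament and is known to be damage-induced, changed by 0.02 at 110 mg/L and -0.02 at 200 mg/L (adjusted p = 0.970 and 0.925).

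Postreplication repair and translesion synthesis, with 4 genes, held none past the test at either dose. Of all genes, 4.26% passed at 110 mg/L and 17.8% at 200 mg/L. REV1, a translesion polymerase, came nearest. It read 2063, 2039 and 2242 at 200 mg/L, all above the 1970, 1904 and 1824 of the IC20 controls (0.15, adjusted p = 0.0855), and changed by 0.03 at 110 mg/L (adjusted p = 0.911). RAD5, the ubiquitin ligase of the error-free arm, changed by -0.11 at 200 mg/L (adjusted p = 0.183) and 0.01 at 110 mg/L (adjusted p = 0.971). The ubiquitin conjugating enzyme gene RAD6 and its partner ligase RAD18 changed by -0.08 to 0.03 at the 2 doses.

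The checkpoint genes, 5 in all, also gave none past the test. RAD17, a subunit of the clamp placed at damage, read 437, 421 and 395 at 200 mg/L, all above the 386, 381 and 358 of the IC20 controls (0.15, adjusted p = 0.151). RAD24, which loads that clamp, read 597, 595 and 574 at 110 mg/L, all below the 634, 619 and 618 of the LOEC controls (-0.08, adjusted p = 0.625). RAD53, the effector kinase, was the most variable member of the IC20 experiment, with 295, 356 and 431 at 200 mg/L, against 439, 298 and 310 in IC20 controls (0.05, 95% interval spanning 0, adjusted p = 0.855). The adaptor gene RAD9 changed by 0.05 and 0.12 at 110 and 200 mg/L (adjusted p = 0.886 and 0.413), and DUN1, the kinase that acts on the reductase, by 0.12 and 0.06 (adjusted p = 0.452 and 0.619). Of 21 listed genes of G1 and S phase, when several repair genes peak, none passed at 110 mg/L (4.26% of all genes did), and 21 of 21 were positive (median 0.134), against 2861 of 5449 genes. YOX1 and SPT21, the nearest, had 0.28 and 0.20 (adjusted p = 0.0609 and 0.0512). At 200 mg/L 1 of the 21 rose (4.76%, against 17.8% of all genes, median 0.0482), which was PRI2, a primase subunit (0.24, adjusted p = 0.0125). It did not pass on the 6 arrays of that experiment (0.0651) or with the replicate block (0.0589).

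Ribonucleotide reductase was the branch with the highest median at 200 mg/L, 0.114, with all 3 members positive and 1 past the test. Of all genes, 10% rose at that dose. RNR3 read 715, 790 and 844 at 200 mg/L, against 673, 597 and 580 in IC20 controls. Every treated array lay above every control, with means of 783 ± 64.8 and 616 ± 49.5 (SD, n = 3 each). The rise was 0.35 on the log2 scale (fold 1.27, SE 0.0752, 95% interval 0.18 to 0.51, adjusted p = 0.00948). It did not pass in the fit on the 6 arrays of that experiment (adjusted p = 0.0584) or with the replicate block (0.0625). On the 110 mg/L arrays RNR3 read 568, 571 and 576, below the 661, 580 and 647 of the LOEC controls (-0.14, adjusted p = 0.420). The 200 mg/L response minus the 110 mg/L response was 0.48 (SE 0.106, 95% interval 0.25 to 0.72), which did not pass (adjusted p = 0.0607). That difference passed under 5 of 21 alternatives (lowest adjusted p 0.0204). Among them were leaving out IC20 control replicate 1 (adjusted p = 0.0461) and leaving out 200 mg/L replicate 1 (0.0344).

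RNR2 and RNR4 encode the small subunits of the enzyme. RNR2 read 15024, 14169 and 14142 at 200 mg/L, all above the 13104, 13835 and 13113 of the IC20 controls (0.11, adjusted p = 0.0782). The 110 mg/L arrays read 12217, 12132 and 12206, all below the 13064, 12716 and 12518 of the LOEC controls (-0.07, adjusted p = 0.474). RNR4 changed by 0.08 at 200 mg/L and 0.02 at 110 mg/L (adjusted p = 0.232 and 0.892). The median of the 3 reductase genes on each array, as a log2 deviation from the control mean, was 0.171, 0.0863 and 0.126 at 200 mg/L, against -0.0264, 0.00062 and -0.0255 in IC20 controls. On the 110 mg/L arrays it was -0.0632, -0.0733 and -0.0645, against 0.0335, -0.0109 and 0.0415 in LOEC controls. The branch median thus lay above its controls on each array at 200 mg/L and below them on each array at 110 mg/L, a pattern described here without a test. RNR2 and RNR3 did so as single genes, whereas RNR4 overlapped its controls at both doses. Of all genes, 16.3% lay above all controls at 200 mg/L and 12.2% below them at 110 mg/L. The main large subunit gene RNR1, named after its values were seen, changed by 0.18 at 110 mg/L and 0.14 at 200 mg/L (adjusted p = 0.300 and 0.286), and passed at 110 mg/L in the fit on the 6 arrays of that experiment (adjusted p = 0.0337). It read 7313, 7087 and 7011 at 110 mg/L, all above the 6162, 6364 and 6337 of the LOEC controls, and overlapped its controls at 200 mg/L.

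**Figure D4:**
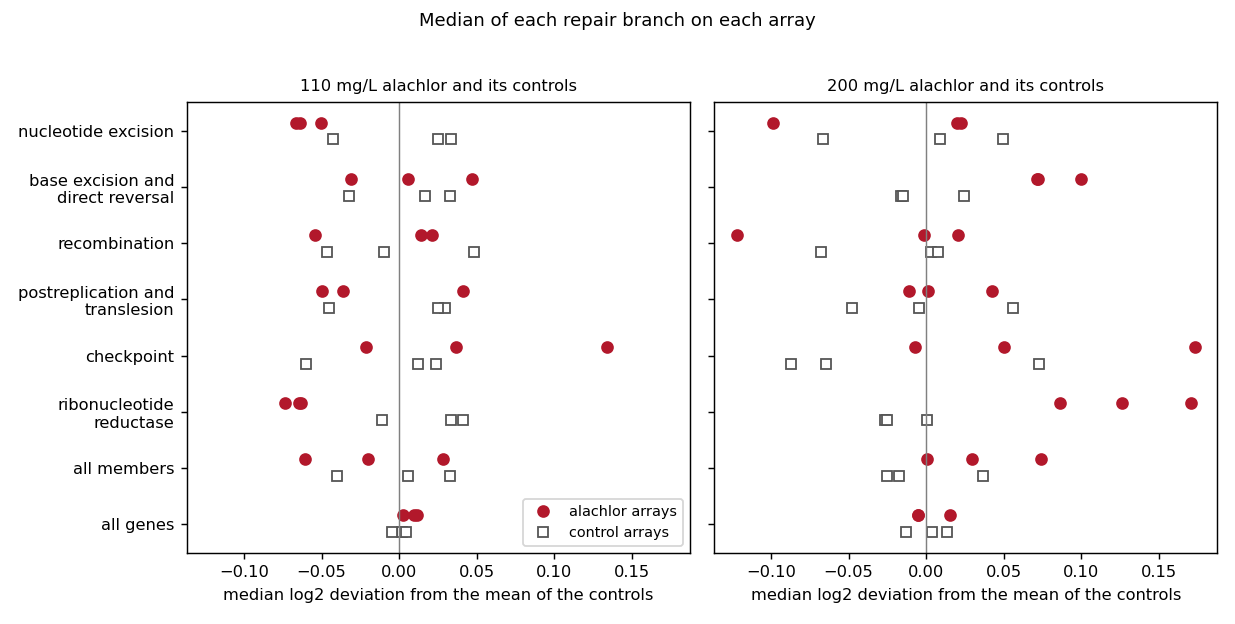
Median log2 deviation from the control mean of each repair branch, of all 35 members and of all genes on each array, at 110 mg/L alachlor with LOEC controls and at 200 mg/L alachlor with IC20 controls. Base excision and direct reversal and ribonucleotide reductase lie above all their controls at 200 mg/L, and nucleotide excision and ribonucleotide reductase lie below all theirs at 110 mg/L. The other branch medians overlap their controls. For comparison, 30.8% of all single genes at 200 mg/L and 27.6% at 110 mg/L do not overlap their controls in either direction.

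A wider list held 98 measured genes of the same branches, of mismatch repair and of a group known as damage-induced. At 110 mg/L 1 rose and 1 fell (2.04%, against 4.26% of all genes), and at 200 mg/L 1 rose and 2 fell (3.06%, against 17.8%). HUG1, a small inhibitor of ribonucleotide reductase that is repressed by the same factor as RNR3, read 744, 573 and 505 at 200 mg/L, against 385, 505 and 392 in IC20 controls. The rise was 0.50 on the log2 scale (fold 1.41, SE 0.143, 95% interval 0.18 to 0.82, adjusted p = 0.0350), although the lowest treated array, at 505.29, lay just under the highest control, at 505.45. The call passed under 12 of 21 alternatives. It was lost under 3 other settings and without any 1 of 6 arrays (adjusted p 0.0503 to 0.111). Those arrays were LOEC control replicate 2, 110 mg/L replicate 2, IC20 control replicates 1 and 3, and 200 mg/L replicates 1 and 2. HUG1 changed by 0.22 at 110 mg/L (adjusted p = 0.512).

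RMI1, a subunit of the Sgs1 and Top3 complex that resolves recombination intermediates, fell at both doses, by 0.20 at 110 mg/L (adjusted p = 0.0352) and by 0.32 at 200 mg/L (adjusted p = 0.000765). The fall at 200 mg/L passed under 22 of 22 alternatives, and that at 110 mg/L under 13 of 22. The call at 110 mg/L was lost under 3 other settings and without any 1 of 6 arrays (adjusted p 0.0527 to 0.146). Those arrays were LOEC control replicates 1 and 2, all 3 replicates at 110 mg/L and IC20 control replicate 1. DIN7, a mitochondrial nuclease known to be damage-induced, rose by 0.25 at 110 mg/L (adjusted p = 0.0381) and had 0.04 at 200 mg/L (adjusted p = 0.714). Its call passed under 10 of 21 alternatives. It was lost under 3 other settings and without any 1 of 8 arrays (adjusted p 0.0509 to 0.149). Those arrays were all 3 LOEC controls, all 3 replicates at 110 mg/L and IC20 control replicates 1 and 3. YLR297W, listed as damage-induced, fell by 0.34 at 200 mg/L (adjusted p = 0.0400), a call that passed under 10 of 22 alternatives. It was lost under 2 other settings and without any 1 of 10 arrays (adjusted p 0.0517 to 0.126). Those were all arrays but IC20 control replicate 1 and 200 mg/L replicate 1. At 110 mg/L YLR297W read 1042, 946 and 1002, all below the 1197, 1243 and 1263 of the LOEC controls (-0.31, adjusted p = 0.127). That change passed under 3 of 22 alternatives.

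Arrays of the IC20 experiment varied with coding length. Over all genes the Spearman correlation of an array's deviation from its group mean with coding length was -0.488, -0.155 and 0.57 on the 200 mg/L arrays and 0.396, -0.464 and 0.182 on the IC20 controls, but lay between -0.0777 and 0.152 in the LOEC experiment. The 35 members followed with -0.531, -0.0622 and 0.565 at 200 mg/L and 0.529, -0.459 and -0.0783 in IC20 controls. The log2 change at 200 mg/L itself correlated with coding length at 0.17 over all genes and 0.273 over the members. At 110 mg/L these values were 0.0534 and -0.0608. The median log2 SD of the members was 0.091 at 200 mg/L and 0.0862 in IC20 controls, against 0.0546 at 110 mg/L and 0.063 in LOEC controls. Once the trend with length was removed from each array, RAD16, MGT1 and RNR3 still passed at 200 mg/L, and RAD4 and RAD5 passed as falls (adjusted p = 0.0459 and 0.0306). Between the untreated groups, IC20 controls minus LOEC controls, none of the 35 members passed, against 43 of all genes (0.789%, of which 0.587% upward), with the largest value 0.55 for RAD55 (adjusted p = 0.195). That value was 0.307 (adjusted p = 0.356) without LOEC control replicate 3, the array on which RAD55 lay below the floor.

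**Figure D5:**
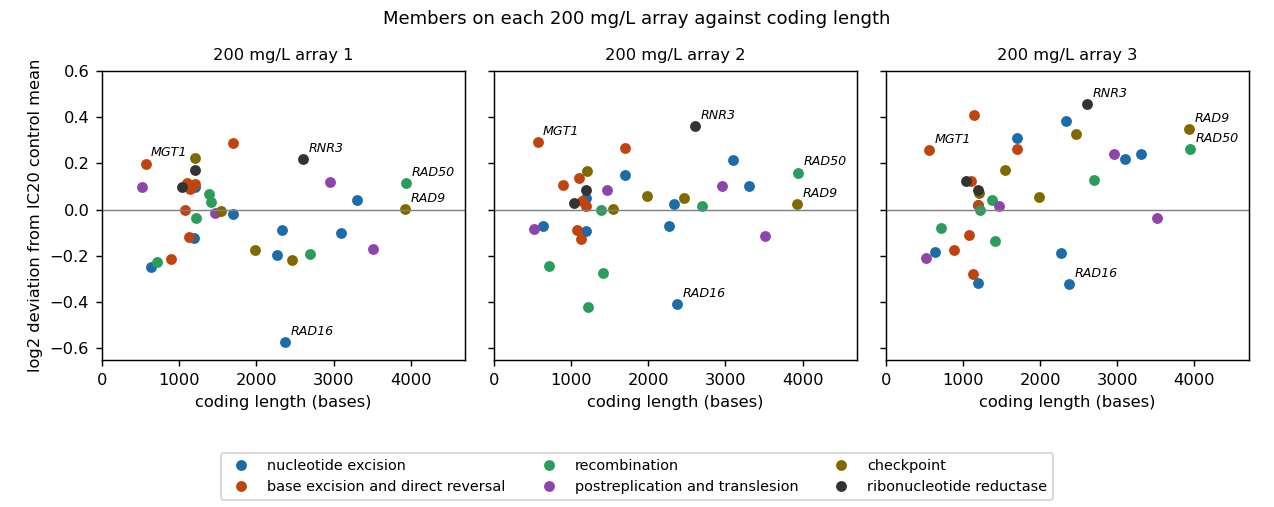
Log2 deviation of each member from its IC20 control mean on each of the 3 arrays at 200 mg/L alachlor, against coding length in bases, coloured by branch. Long members such as RAD9 and RAD50 lie higher on array 3 than on array 1, while RAD16 lies below 0 and MGT1 and RNR3 above 0 on all 3 arrays.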

How the data were processed

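The authors deposited intensities on a linear scale, 1 per probe set and array, from 1-colour arrays labelled with biotin. The submitters' processing notes name Affymetrix Expression Console without version or role, and probe summary, normalization and genome build are not given in the sources used here. Of 5716 probe sets, 5498 map to 1 gene and 218 to none. Symbols were updated through the RefSeq table of assembly R64, and the probe set of highest mean stood for each of 47 genes that had more than 1. Log2 values of 12 arrays, without pseudocount, were fitted with 4 group means in limma 3.58.1 (R 4.3.3). P-values were two-sided, and 8 residual and 2.73 prior degrees of freedom were available. A single gene with 3 arrays against 3 cannot give an exact permutation p below 0.1, so none is given. Members and lists were chosen with earlier results of these data known, and list counts are descriptions. The rule named all 35 members, wider-list genes past the test and the 3 genes of each context list with the smallest p, and genes outside it are marked in the text. The fit was also run on simulated data with independent noise for each gene and array. Those data held no shared trend with coding length, so they do not show how such trends affect the calls. Alternatives were quantile normalization, median centring, log2 of the value plus 16, leaving out the dimmest 20%, trend with robust moderation, the mean of a gene's probe sets, single experiments, the replicate block, removal of length trends, and leaving out each array or a pair of IC20 arrays. The planned promoter search was not run, since no sequences were at hand, and 3 listed genes were not analysed here. The number of arrays limits the precision.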

Additional observations from a re-analysis of the deposited data

Results flagged for a closer look

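MGT1, which takes alkyl groups from guanine, differed in its response between the doses. The 200 mg/L response exceeded the 110 mg/L response by 0.323 on the log2 scale (SE 0.0619, adjusted p = 0.0318 in limma), with 0.25 at 200 mg/L and -0.07 at 110 mg/L. All 3 arrays at 200 mg/L lay above the IC20 controls, while the 110 mg/L arrays overlapped the LOEC controls. The call passed under 8 of 21 alternatives. It was lost without any 1 of 10 single arrays (adjusted p 0.06 to 0.102) and with the replicate block (0.269), trend and robust moderation (0.0622) or without the pair of arrays of most negative length trend (0.0543).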

How the results depend on the processing

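Among the named genes that passed under any setting, none changed sign under the alternatives that could be run. At 110 mg/L no member passed, but 1 fell after quantile normalization and 1 after median centring (RAD4 in both), and leaving out single arrays gave 0 to 1 falls. At 200 mg/L the 3 rises became 1 on the arrays of that experiment alone and 1 with the replicate block, and 2 to 4 without single arrays. The 1 fall became 2 after quantile normalization, 3 without length trends and 0 without the dimmest 20%, which leaves out RAD16, and stayed 1 without single arrays. The members' median at 200 mg/L, 0.0531, was 0.0126 to 0.0726 without single arrays, at 110 mg/L, where it was -0.0164, it changed sign (-0.0586 to 0.00351 without single arrays, -0.047 to 0.0199 otherwise), and for the difference 0.0175 to 0.0914. The 1 member whose responses differed upward became 2 after quantile normalization, without the dimmest 20% or without length trends, 0 with trend and robust moderation, the replicate block or without the pair of arrays of most negative length trend (IC20 control 2 and 200 mg/L 1), and 0 to 2 without single arrays. Downward, 1 differed without length trends (RAD16, adjusted p = 0.0441). The cause was not tested. The sample titles do not state whether equal replicate numbers mark paired cultures. Deviations of arrays with the same number correlated at -0.322, -0.00984 and -0.134 in the LOEC experiment and at -0.615, -0.196 and 0.144 in the IC20 experiment. Treated and control arrays of unlike number correlated at -0.0606 to 0.243 in the LOEC experiment and at -0.481 to 0.648 in the IC20 experiment. With the replicate block 72 genes rose and 25 fell at 110 mg/L (166 and 66 without it), and 319 rose and 200 fell at 200 mg/L (546 and 425 without it). On single experiments 283 rose and 161 fell at 200 mg/L, and 102 fell at 110 mg/L. Falls at 110 mg/L numbered 101 after median centring and 115 without length trends. The replicate block left 19 upward and 2 downward differences, against 54 and 14. Upward differences numbered 34, 35 and 34 without 110 mg/L replicates 1 and 3 and IC20 control replicate 1, and downward ones 5 to 9 without any array but LOEC control replicate 3 and 200 mg/L replicates 1 and 3.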
